A study of Mus musculus with 14 samples.

Results

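Blastocysts cloned from cumulus cells by cell fusion were compared with blastocysts cloned by nuclear injection across 9 functional gene families. In cell fusion the donor cell is merged with the enucleated oocyte, so that its cytoplasm and membrane enter the oocyte as well, whereas in injection a pipette carries mainly the donor nucleus into the oocyte. The comparison asked whether the way of nuclear transfer by itself changed the transcriptome. It rested on 8 of the 14 arrays of the series, 4 hybridized with fusion clones and 4 with injection clones, and the other 6 held IVF-derived embryos. All 8 clones were female blastocysts of stage E4.0 made with cumulus cell donors and cultured in KSOM, an embryo culture medium, and they carried no further treatment by their labels. The study's methods describe cumulus cell donors as heterozygous *Xist* knockout females on a BDF1 background and recipient oocytes as BDF1, but the labels give neither strain nor genotype for these 8 samples. Total RNA was amplified in linear fashion through 2 rounds, labeled with Cy3 and hybridized to 1-color Agilent arrays of the mouse genome. Whether each sample was 1 blastocyst is not given, and nothing in the labels says that the 4 samples of a group came from separate transfer sessions. The p-values therefore measure only the spread between these samples, which may be technical. The 4 fusion clones shared 1 slide and the 4 injection clones another, so slide and way of transfer cannot be told apart.

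The families were taken by the start of the gene name printed on the array. They were the ribosomal proteins of the large and small subunit (*Rpl* and *Rps*), the subunits of respiratory complexes I and IV (*Nduf* and *Cox*), the proteasome (*Psm*), the histones (*Hist*), the heat shock proteins (*Hsp*), the keratins (*Krt*) and the solute carriers (*Slc*). Together they held 651 of the 27962 gene names of the array. A gene was tested if 1 or more of its probes was well above background on any of the 8 arrays, which left 592 family genes among 22094 genes. Values are log2 of the quantile-normalized signal, with a floor of 16 (4.0 on the log2 scale), and every difference is the mean of the 4 fusion clones minus the mean of the 4 injection clones. A difference below 0 thus means a lower signal in the fusion clones. Where a gene had several probes, their mean was used.

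These families carry out work that every cell of the blastocyst needs, and their genes are often regulated together. The ribosome builds proteins, the proteasome breaks down those marked with ubiquitin, and heat shock proteins fold or refold them. Complexes I and IV pass electrons along the inner mitochondrial membrane, and solute carriers move nutrients and ions across membranes, which the trophectoderm does to fill the blastocyst cavity. Replication-dependent histone genes are read mainly in S phase, and keratins 8 and 18 build the filaments of the trophectoderm, the outer epithelium of the blastocyst.

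The arrays were alike in depth of signal. Of the 43379 gene spots, 57.5% to 62.2% were well above background in the fusion clones and 59.8% to 65.2% in the injection clones. Epiblast and trophectoderm markers were above background on all 8 arrays in both groups, among them *Pou5f1*, *Nanog*, *Cdx2*, *Eomes* and *Gata3*. The summed signal of 7 trophectoderm markers ranged from 645800 to 834800 in the fusion clones and from 551800 to 771100 in the injection clones. For 5 epiblast markers the ranges were 31300 to 39380 and 28210 to 53430, and for 8 primitive endoderm markers 11890 to 26330 and 8159 to 22220. Of the 9 cumulus cell markers 7 were tested and 1 was above background on all 8 arrays, with summed signals of 176.5 to 280.4 against 173.6 to 378.3, and *Ptx3* sat at the floor on 7 of the 8 arrays. The summed signal of 5 oocyte markers was 338.8 to 1291 in the fusion clones against 1213 to 1818 in the injection clones, and the part of these transcripts in the family differences was not tested. No marker gene reached an unadjusted p below 0.05. In RNA of whole samples, fewer cells of a type and less RNA per cell cannot be told apart.

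With the main settings no gene of any family passed the test after adjustment. By limma with Benjamini-Hochberg adjustment over all 22094 genes, 0 genes (0.0%) had an adjusted p below 0.05, the lowest value being 0.123. Without adjustment 1370 genes (6.2%) had a p below 0.05, of which 593 (2.68%) were higher and 777 (3.52%) lower in the fusion clones. At an unadjusted p below 0.05 with at least a 2-fold difference there were 448 genes (2.03%). The methods name a 5% level and a 2-fold filter and do not say whether p was adjusted. Of the 592 family genes 36 (6.08%) had an unadjusted p below 0.05 whatever the fold, which is close to the share over all genes. The 2 groups did not overlap for 23 family genes (3.89%), against 723 genes in all (3.27%), of which 311 (1.41%) were higher and 412 (1.86%) lower in the fusion clones. The share over all families thus stood near the background, and the families differed from each other in how these genes were spread over them.

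The proteasome stood furthest from 0. Its 44 genes had a median difference of -0.23, against -0.01 over all genes tested, and 37 of them (84.1%) were lower in the fusion clones, against 51.5% of all genes. At an unadjusted p below 0.05, 11 proteasome genes (25%) were lower and 0 were higher, against 3.52% and 2.68% of all genes. The other 8 families had median differences between -0.02 and 0.10. Each array was also given a family level, the median over the tested genes of a family of each gene's value minus that gene's mean over the 8 clones. The proteasome level was -0.02, -0.20, -0.14 and -0.12 in the fusion clones and 0.27, 0.04, 0.19 and 0.00 in the injection clones. All 4 fusion clones lay below all 4 injection clones, with a mean of -0.12 ± 0.08 (SD, n = 4) against 0.13 ± 0.13 (SD, n = 4), and no other family showed this. The gap was narrow, since fusion clone 1 and injection clone 4 lay close together at -0.02 and 0.00. The family level separated the groups in 15 of 17 alternative settings. In 8 of the 17 only 1 array was left out, where groups already apart could hardly come to overlap. Among the settings that changed the processing, the groups overlapped with scaling to the 75th percentile or with only the brightest probe of each gene. With the deposited log2 table the gap was small, with the highest fusion clone at -0.0418 and the lowest injection clone at -0.0413.

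**Figure D1:**
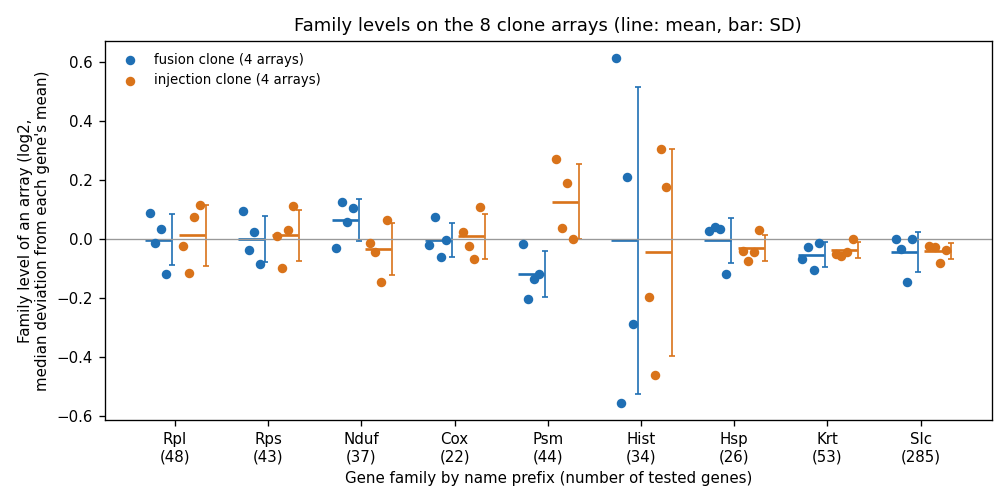
Family level of each of the 8 clones (y axis, log2, median over the tested genes of a family of each gene's value minus its mean over the 8 clones) for the 9 gene families (x axis), with points for single arrays, horizontal lines for group means and vertical bars of 1 SD. In the proteasome family the 4 fusion clones lie between -0.20 and -0.02 and the 4 injection clones between 0.00 and 0.27, while in the other 8 families the groups overlap.

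The proteasome is a barrel-shaped 20S core, which holds the proteases, capped by a 19S regulator that binds and unfolds ubiquitin-tagged proteins. Of 18 genes of the 20S core, 16 were lower in the fusion clones, with a median difference of -0.31 and 6 genes at an unadjusted p below 0.05. Of 20 genes of the 19S regulator, 17 were lower, with a median of -0.20 and 5 such genes. The regulator is counted here with its assembly chaperones, and *Psmd5* and *Psmd9*, 2 of these 5 genes, encode such chaperones. Activators and the inhibitor made up 5 genes, of which 4 were lower with a median of -0.16 and none at such a p. *Psmc3ip*, which shares the prefix but acts in meiotic recombination, differed by 0.04. The proteasome differences were small, the 11 genes ranging from -0.44 to -0.24, or 1.18- to 1.36-fold lower in the fusion clones, with adjusted p between 0.505 and 0.802 by limma. Their count moved with the processing while the direction over the family did not. Over 20 alternatives 35 to 40 of the 44 genes were lower and the median stayed between -0.27 and -0.18. The count of genes lower at an unadjusted p below 0.05 was 0 with a floor of 1, 1 with the authors' deposited log2 values or with all 4 groups in one fit, and 4 when probes had to be above background on at least 4 arrays. Without fusion clone 2, 3 or 4 it was 5, 7 or 6, and without injection clone 1 or 3 it was 7 or 5.

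The windows of 250 bases before the transcription start of 3 of these 11 genes are shown because they carry letters that were searched for in proteasome promoters, taken from RefSeq on build GRCm38.p6. The windows lie at chr14:45329574-45329823 for *Psmc6*, at chr16:20651402-20651651 for *Psmd2* and at chr13:14612992-14613241 for *Psma2*, all on the + strand and written 5′ to 3′ up to the start. Capitals mark CCGGAAG, the core bound by GABP and related ETS factors, in *Psmc6*, its reverse complement CTTCCGG in *Psmd2*, and GCGCA joined to its reverse complement TGCGC, the palindrome bound by NRF1, in *Psma2*.
Psmc6: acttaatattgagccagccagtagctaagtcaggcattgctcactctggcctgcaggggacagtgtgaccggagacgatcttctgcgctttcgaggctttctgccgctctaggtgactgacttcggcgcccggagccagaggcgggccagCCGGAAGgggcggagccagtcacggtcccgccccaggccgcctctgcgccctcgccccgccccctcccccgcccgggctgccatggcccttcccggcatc
Psmd2: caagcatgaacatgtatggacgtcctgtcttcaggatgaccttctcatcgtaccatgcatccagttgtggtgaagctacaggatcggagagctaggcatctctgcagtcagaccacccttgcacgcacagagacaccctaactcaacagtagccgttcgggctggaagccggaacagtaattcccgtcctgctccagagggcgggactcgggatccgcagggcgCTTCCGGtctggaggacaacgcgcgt
Psma2: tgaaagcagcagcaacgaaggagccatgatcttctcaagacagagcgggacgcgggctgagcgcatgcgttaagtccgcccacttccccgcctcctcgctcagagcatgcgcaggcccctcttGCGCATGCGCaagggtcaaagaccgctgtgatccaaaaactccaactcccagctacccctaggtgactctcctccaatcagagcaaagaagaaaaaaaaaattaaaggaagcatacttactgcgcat
The first capital letter stands 100 bases before the start in *Psmc6*, 26 in *Psmd2* and 127 in *Psma2*. Searched on both strands, CCGGAAG was in 13 of 39 windows of the 37 proteasome genes with an entry (33.3%), against 6.9% of all 32851 windows of this length. It was not particular to the proteasome. *Rps* windows held it in 29.3%, *Cox* in 21.4%, *Rpl* in 19.5%, *Hsp* in 13.6%, *Nduf* in 11.4% and *Slc* in 7.0%. No *Hist* or *Krt* window held it. Windows of 19S regulator genes held it in 50% and those of the 20S core in 6.7%. It was in 30% of windows of the genes lower at an unadjusted p below 0.05 and in 34.5% of those of the other proteasome genes. The NRF1 palindrome was in 1 of 39 proteasome windows (2.6%), the *Psma2* window shown above, against 0.8% of all windows. TGACNNNGC, the core of the antioxidant response element, was in 12.8% of proteasome windows against 10.2%. A match is a description of these letters and not a site shown to be bound.

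The 11 proteasome genes were singled out by their p after their values had been seen, and those whose groups did not overlap are given with every array. *Psmb2*, a beta subunit of the 20S core, was at 12.64, 12.65, 12.60 and 12.59 in the fusion clones and at 12.86, 13.02, 12.96 and 12.97 in the injection clones. Its 4 fusion values were nearly equal and lay below all 4 injection values, a difference of -0.33 ± 0.07 (SE) with an unadjusted p of 0.00284 and an adjusted p of 0.505 by limma. *Psma2*, an alpha subunit of the outer ring whose window is shown above, was at 16.90, 16.99, 16.88 and 16.74 in the fusion clones and at 17.56, 17.29, 17.26 and 17.02 in the injection clones. The groups did not overlap, injection clone 1 was the highest, and the difference was -0.40 ± 0.13 (SE). *Psmc6*, an ATPase of the 19S base, was at 14.33, 14.14, 14.11 and 14.20 in the fusion clones and at 15.05, 14.57, 14.42 and 14.51 in the injection clones. Here too injection clone 1 stood highest and the fusion clones lay below all injection clones, with a difference of -0.44 ± 0.15 (SE). *Psmd5*, a chaperone that helps the base to assemble, was at 14.19, 13.86, 14.14 and 13.98 in the fusion clones and at 14.19, 14.29, 14.30 and 14.33 in the injection clones. Fusion clone 1 and injection clone 1 were almost level at the edge of the groups. *Psmc2*, another ATPase of the base, did not overlap either, with a difference of -0.19 and an unadjusted p of 0.0509. These 5 were all the proteasome genes without overlap, 11.4% of the 44, against 1.86% of all genes lower and 1.41% higher.

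The other 7 of the 11 genes overlapped between the groups by 1 or more arrays. *Psmb3*, a beta subunit, was at 15.77, 15.55, 15.56 and 15.61 in the fusion clones and at 16.02, 16.23, 16.01 and 15.73 in the injection clones, so that only fusion clone 1 and injection clone 4 broke the order. *Psmc4*, an ATPase, was at 15.02, 14.52, 14.76 and 14.77 in the fusion clones and at 14.99, 15.07, 15.33 and 15.19 in the injection clones, and fusion clone 1 was the highest fusion clone again. *Psma6* and *Psma5*, alpha subunits, differed by -0.42 and -0.35, and *Psmb1*, a beta subunit, by -0.35. *Psmd2*, the scaffold that receives ubiquitin-like proteins and whose window is shown above, differed by -0.30, and *Psmd9*, an assembly chaperone, by -0.44. In all 7 the mean of the injection clones was the higher one.

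Subunits chosen for their textbook role rather than their values gave differences between -0.26 and -0.15. *Psmb5*, which carries the chymotrypsin-like protease, was at 15.71, 15.28, 15.61 and 15.64 in the fusion clones and at 16.02, 15.80, 15.84 and 15.63 in the injection clones, a difference of -0.26 with an unadjusted p of 0.0902. *Psmd4*, a ubiquitin receptor, differed by -0.16 and *Psma7*, an alpha subunit, by -0.15. The subunits that replace the standard proteases in the immunoproteasome did not share a direction. *Psmb9* was at 11.77, 13.66, 12.90 and 13.44 in the fusion clones and at 10.32, 13.97, 13.19 and 13.11 in the injection clones, a spread of over 3 log2 units within the injection clones. *Psmb10* differed by -0.05. *Psmb8* was above background on 2 fusion clones and on no injection clone. Its mean was 1.39-fold higher in the fusion clones, with an adjusted p of 0.809 by limma. That mean takes in fusion clones not above background, so the fold is not a bound. The largest difference below 0 was that of *Psma8*, the alpha subunit of the testis, at 8.34, 7.91, 10.12 and 8.82 in the fusion clones and at 8.04, 10.79, 10.09 and 10.12 in the injection clones, a difference of -0.97 ± 0.71 (SE) within the spread of the arrays. *Psmd1*, the large scaffold of the base, had the highest difference among genes above background in both groups at 0.30, with values at 16.23, 15.69, 15.77 and 15.87 in the fusion clones and at 15.35, 15.93, 15.86 and 15.21 in the injection clones.

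**Figure D2:**
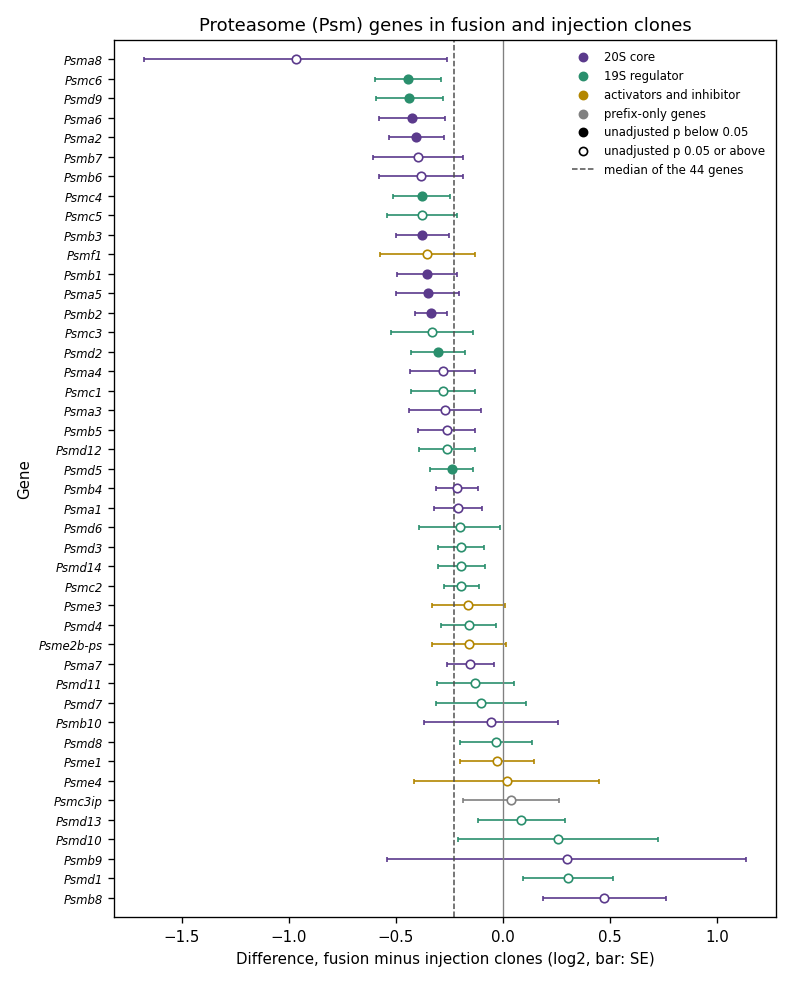
Difference between fusion and injection clones (x axis, log2, with bars of 1 standard error from limma) for the 44 proteasome genes (y axis), colored by the part of the complex they belong to, with filled points for an unadjusted p below 0.05, open points for the rest and a dashed line at the median of the 44 genes. Of the 44 genes 37 lie below 0, and 7 lie above 0, among them *Psmb8*, *Psmb9* and *Psmd1*.

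Proteasome genes also moved together from array to array. Over the 8 arrays the mean Pearson correlation between pairs of proteasome genes was 0.29, against 0.01 between pairs of all genes tested, 0.22 for *Rpl*, 0.22 for *Hist* and between -0.01 and 0.13 for the other 6 families. These are descriptions, since all pairs share the same 8 hybridizations. It was 0.35 among genes of the 20S core, 0.40 among genes of the 19S regulator and 0.36 between the 2 parts. Activators and the inhibitor correlated with the core at 0.12 and with the regulator at 0.08. The difference between the groups is included in these correlations. The enzymes that mark proteins for the proteasome were counted as well. Of 44 tested genes of ubiquitin and its enzymes 28 (63.6%) were lower in the fusion clones, against 51.5% of all genes, with a median of -0.11. At an unadjusted p below 0.05, 4 (9.09%) were lower, against 3.52% of all genes, and 0 higher. The level of this list overlapped between the groups. *Ube2l3*, a conjugating enzyme, was at 13.30, 13.30, 13.38 and 13.38 in the fusion clones and at 13.83, 13.56, 13.53 and 13.76 in the injection clones, and the groups did not overlap. *Ube4b*, a ubiquitin ligase, differed by -0.69, *Ube2e1*, a conjugating enzyme, by -0.62 and *Ube2v2*, a cofactor of conjugation, by -0.56. *Ubb*, a polyubiquitin gene, differed by -0.18.

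Where a gene was measured by several probes, these could be compared within the array. Of the 7013 genes with at least 2 tested probes, all probes pointed the same way in 54.0% (95% Wilson interval 52.8% to 55.2%), and the differences of the 2 brightest probes had a Pearson correlation of 0.30 across genes, which are not independent replicates. Of the 17 such proteasome genes 13 (76.5%, interval 52.7% to 90.4%) had all probes on 1 side, 11 of them lower in the fusion clones, and the correlation was 0.69. Intervals cover counting error only. Among probes above background on all 8 arrays the shares were 13 of 15 proteasome genes (86.7%) and 61.7% of all genes. On these probes the share was 5 of 5 for *Krt* (100%), 75% for *Cox* and for *Hsp*, and 71.4% for *Rps*. It was 66.7% for *Nduf*, 65.5% for *Slc*, 65% for *Rpl* and 50% for *Hist*. Of the 11 proteasome genes lower at an unadjusted p below 0.05, 5 had 2 probes each, and all 10 of these probes were lower, with differences of -0.57 to -0.29, though the genes were chosen on the mean of these same probes. The 2 probes of *Psmb3* gave -0.38 and -0.37, those of *Psmc4* -0.42 and -0.34, and those of *Psmc6* -0.54 and -0.35. *Psmd7*, a subunit of the 19S lid, was an exception, with probes at -0.24, -0.33 and 0.26, where the third probe is designed on another cDNA entry than the first 2.

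**Figure D3:**
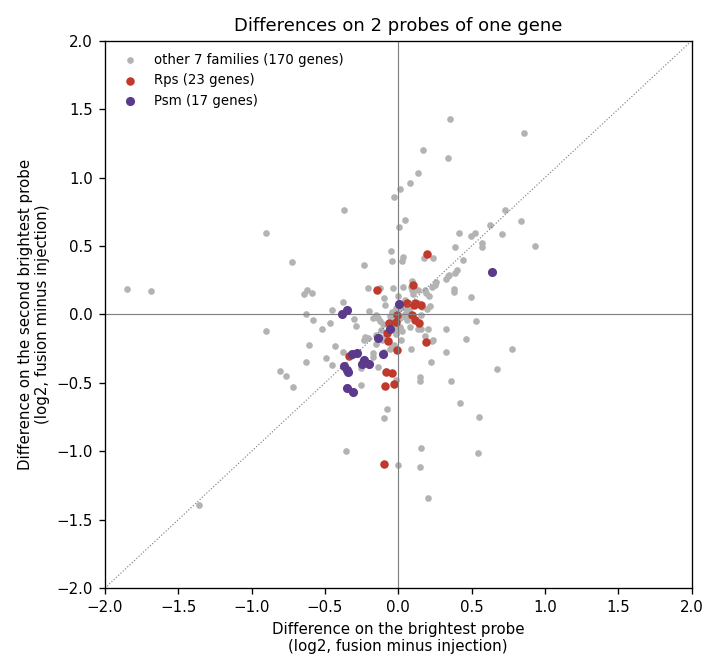
Difference between fusion and injection clones at the brightest probe of a gene (x axis, log2) against that at its next brightest probe (y axis, log2), one point per gene of the 9 families with at least 2 tested probes, in separate colors for 17 *Psm* genes, 23 *Rps* genes and the genes of the other 7 families, and with a dotted line where both differences are equal. Proteasome genes lie mostly in the lower left corner, where both probes are lower in the fusion clones, and the correlation over these genes is 0.69.

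The other families were counted in the same way. All probes pointed the same way in 13 of 21 *Rpl* genes (61.9%), 12 of 23 *Rps* genes (52.2%), 7 of 10 *Nduf* genes (70%), 4 of 5 *Cox* genes (80.0%), 8 of 13 *Hsp* genes (61.5%), 7 of 11 *Krt* genes (63.6%), 4 of 7 *Hist* genes (57.1%) and 61 of 103 *Slc* genes (59.2%). Over the 9 families it was 129 of 210 genes (61.4%). Among genes with exactly 2 tested probes it was 11 of 13 (84.6%) for *Rps* and likewise for *Psm*, against 62.5% of all genes. The correlation of the 2 brightest probes was 0.75 for *Rpl*, 0.73 for *Nduf*, 0.59 for *Cox*, 0.50 for *Rps* and 0.48 for *Hsp*. It was 0.25 for *Slc* and close to 0 for *Hist* (0.01) and *Krt* (0.00). Probes of 1 gene can be designed on different cDNA entries, and those of histones can pick up near-identical copies.

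The large subunit of the ribosome had the smallest median absolute difference of the families. The 48 tested *Rpl* genes had a median difference of -0.01, 22 higher and 26 lower, and 0 reached an unadjusted p below 0.05. Their median absolute difference was 0.07, against 0.24 over all genes and 0.11 over the 1357 genes with a mean level of 14 or more. It was 0.07 as well for the 32 small-subunit proteins among the *Rps* names. The *Rpl* genes were bright, with a median level of 16.12, and their differences ran from -0.20 to 0.44. The large-subunit level was 0.09, -0.01, 0.03 and -0.12 in the fusion clones and -0.02, -0.12, 0.08 and 0.11 in the injection clones, and the arrays of both groups were mixed. *Rplp0*, which forms the stalk of the large subunit, was at 14.38, 14.26, 14.34 and 14.17 in the fusion clones and at 13.93, 13.95, 14.13 and 14.28 in the injection clones, with an unadjusted p of 0.0913. *Rpl3*, a protein of the catalytic centre, differed by 0.20, *Rpl31* by 0.44, the highest of the family, and *Rpl14* by -0.20, the lowest. *Rpl27a* differed by 0.01 and changed sign without fusion clone 2 or 3 or injection clone 2 or 4, with values between -0.08 and 0.00.

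Of 43 *Rps* genes 32 encode proteins of the small subunit, with a median difference of -0.01 and 13 higher. The level over all 43 *Rps* genes was 0.10, -0.04, 0.02 and -0.09 in the fusion clones and 0.01, -0.10, 0.03 and 0.11 in the injection clones. Again the groups were mixed, and fusion clone 1 and injection clone 4 were the highest. *Rps3*, which lies at the entry of the mRNA channel, differed by 0.04 and, without fusion clone 1, by -0.03, and *Rps6*, a target of the S6 kinases, by -0.24. *Rps18* had the lowest p of all family genes, with a difference of 0.94 ± 0.18 (SE), an unadjusted p of 0.00131 and an adjusted p of 0.476 by limma. Its 3 probes did not share this. Both probes on its main transcript gave 0.12 and -0.04, and the groups overlapped on each. The third probe, on another cDNA entry, gave 2.75 and was at 9.51, 9.98, 9.69 and 9.16 in the fusion clones and at 6.68, 8.77, 6.02 and 5.85 in the injection clones. The groups did not overlap on it. The difference of the gene came from this dim probe, and which transcript it measures was not tested. The other 11 *Rps* names are S6 kinases and a binding protein. *Rps6ka5*, the kinase MSK1, had the highest difference at 0.95 and *Rps6kl1* the lowest at -1.23, both within their spread. *Rps19bp1*, a partner of *Rps19*, was at 12.53, 12.30, 12.37 and 12.60 in the fusion clones and at 12.80, 12.71, 12.97 and 12.61 in the injection clones, a difference of -0.32 without overlap. The 75 genes of the mitochondrial ribosome had a median difference of -0.03 and a median absolute difference of 0.12. At an unadjusted p below 0.05, 2 (2.67%) were lower and 0 higher, against 3.52% and 2.68% of all genes.

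Complex I leaned the other way from the proteasome by a smaller amount. Of 37 *Nduf* genes 25 were higher, against 47% of all genes, with a median of 0.10. At an unadjusted p below 0.05, 2 (5.41%) were higher and 0 lower, against 2.68% and 3.52% of all genes. These 2, *Ndufa10* and *Ndufa13*, were named after their values were seen. The median was 0.05 without fusion clone 2, 0.06 without injection clone 1 or 3 and 0.06 with scaling to the 75th percentile or with the deposited log2 table, and 22 to 29 genes were higher over the alternatives. The complex I level was -0.03, 0.13, 0.06 and 0.10 in the fusion clones and -0.01, -0.05, -0.15 and 0.07 in the injection clones. Fusion clones 2 and 4 were high and injection clone 3 low, with overlap between the groups. Among subunits of the B and C series 11 of 13 were higher with a median of 0.12, among the core S and V series 7 of 10 with a median of 0.14, and the 13 of the A series had a median of 0.01. *Ndufa10*, an accessory subunit, was at 13.28, 13.37, 13.38 and 13.16 in the fusion clones and at 12.10, 12.82, 12.90 and 11.92 in the injection clones. The 4 fusion clones were close together and above all injection clones, which were spread over about 1 log2 unit, a difference of 0.86 ± 0.24 (SE) with an adjusted p of 0.674 by limma. *Ndufa13*, also known as GRIM-19, was at 15.37, 15.39, 15.30 and 15.31 in the fusion clones and at 15.16, 15.18, 14.99 and 15.12 in the injection clones, a difference of 0.24 without overlap. *Ndufs1*, the largest core subunit, differed by 0.20 and, without injection clone 1, by -0.04. *Ndufa4*, first assigned to complex I, differed by -0.13 and, without injection clone 4, by 0.03, *Ndufa11*, an accessory subunit, by -0.38, the lowest, and *Ndufb8*, also accessory, by 0.89, the highest, where the 2 probes gave 0.36 and 1.43 and injection clone 2 at 9.97 lay far below the rest.

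The 22 tested *Cox* genes fell into 2 kinds. Of 16 subunits of cytochrome c oxidase 11 were higher in the fusion clones with a median of 0.12, and of 6 assembly factors and other genes with the prefix 5 were lower with a median of -0.20. The level over all 22 *Cox* genes was -0.02, 0.07, -0.06 and 0.00 in the fusion clones. In the injection clones it was 0.02, -0.02, -0.07 and 0.11, and the groups overlapped. For the 16 subunits alone the level was -0.06, 0.15, -0.035 and 0.00 in the fusion clones. It was -0.04, -0.02, -0.10 and 0.09 in the injection clones, again with overlap. *Cox4i1*, the common form of subunit IV, was at 16.88, 17.11, 16.98 and 17.13 in the fusion clones and at 16.92, 16.99, 16.96 and 16.82 in the injection clones, a difference of 0.11 that became -0.03 with another background correction. *Cox6a1* differed by 0.08. *Cox6a2*, the heart and muscle form, had the highest difference at 1.66, from fusion clones 1 and 3, with values at 8.28, 5.36, 7.33 and 4.87 in the fusion clones and at 5.20, 4.02, 5.24 and 4.73 in the injection clones. *Cox8c*, the testis form, was above background on 3 injection clones and on no fusion clone. Its mean was 3.38-fold lower in the fusion clones, with an unadjusted p of 0.0317 and an adjusted p of 0.773 by limma. The injection mean takes in injection clone 3 at the floor. *Cox4nb*, a gene named for its place beside *Cox4i1*, differed by -0.43, and the 2 probes of *Cox5a*, a nuclear-encoded subunit, gave 0.17 and 1.20. The other complexes of the chain gave 6 of 7 genes of complex III higher with a median of 0.11, all 4 of complex II higher with a median of 0.10, and 9 of 16 of the ATP synthase higher with a median of 0.01. No gene of complexes II and III had an unadjusted p below 0.05, and 1 of the ATP synthase (6.25%) did, *Atp5s* at -0.43, against 6.2% of all genes.

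Histone genes varied more between arrays than any other family. Their median SD within a group was 0.82, against 0.43 over all genes, and the median absolute difference was 0.41. The 34 genes had a median difference of 0.03, 18 higher and 16 lower, and 0 reached an unadjusted p below 0.05. That median was -0.25 without fusion clone 1, 0.28 without fusion clone 2, -0.19 without injection clone 2 and 0.21 without injection clone 3. The histone level was 0.61, -0.56, 0.21 and -0.29 in the fusion clones and -0.20, -0.46, 0.30 and 0.18 in the injection clones. Fusion clones 1 and 2 were the highest and the lowest of all 8, so the spread lay within the groups.

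The windows before 2 replication-dependent histone genes on chromosome 13 show the letters that most of this family shares, taken from RefSeq on build GRCm38.p6 and + strand. They are chr13:23581318-23581567 for *Hist1h4d* and chr13:23750838-23751087 for *Hist1h2ab*, with CCAAT or its reverse complement ATTGG and TATAAA in capitals.
Hist1h4d: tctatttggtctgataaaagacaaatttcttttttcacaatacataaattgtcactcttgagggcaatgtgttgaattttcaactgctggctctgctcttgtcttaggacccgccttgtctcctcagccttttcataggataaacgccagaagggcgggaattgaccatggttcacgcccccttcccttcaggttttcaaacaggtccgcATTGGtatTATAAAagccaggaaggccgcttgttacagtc
Hist1h2ab: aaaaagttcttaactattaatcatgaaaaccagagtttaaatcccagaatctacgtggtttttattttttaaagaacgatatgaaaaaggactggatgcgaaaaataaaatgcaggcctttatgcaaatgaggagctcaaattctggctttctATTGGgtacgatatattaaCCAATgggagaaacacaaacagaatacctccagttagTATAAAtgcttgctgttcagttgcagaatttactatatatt
TATAAA began 32 bases before the start in *Hist1h4d* and 41 in *Hist1h2ab*. Searched on both strands, CCAAT was in 86.7% of histone windows against 33.8% of all, and TATAAA in 53.3% against 12.4%. None held CCGGAAG, which says only that these letters are not in these windows.

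The 5 classes of histone differed in their pattern over the arrays. All 6 H4 genes were lower in the fusion clones, with a median difference of -0.51, but this rested on 1 array, since without injection clone 4 the median was 0.07 and 5 of the 6 were higher. Without fusion clone 2 it was -0.15 with 4 of the 6 lower. Of the H2A genes 9 of 11 H2A genes were higher, with a median of 0.47, or 0.16 without injection clone 4 and 0.32 to 0.62 without any other array. The 8 H2B genes had a median of 0.00, the 6 H1 genes of 0.09 and the 3 H3 genes of -0.09. These medians changed sign without 1 array, with ranges of -0.38 to 0.25 for H2B, -0.20 to 0.48 for H1 and -0.21 to 0.05 for H3. The H4 level was 0.66, -1.34, 0.03 and -0.29 in the fusion clones and -0.40, -0.93, 0.30 and 2.0 in the injection clones. Injection clone 4 was more than 1 log2 unit above every other array and fusion clone 2 was the lowest, with the other 6 arrays mixed between them. The H2A level was 0.04, 0.30, 0.51 and -0.28 in the fusion clones and -0.04, -0.21, 0.33 and -0.68 in the injection clones, and the H2B level was 1.11, -0.65, -0.02 and -0.33 in the fusion clones and -0.20, -0.74, 0.60 and 0.33 in the injection clones. Injection clone 4 was the lowest of the 8 for H2A and the highest for H4. The H4 genes varied together over the arrays, with a mean pairwise Pearson correlation of 0.92 over the 8 arrays. It was 0.41 among H2A genes, 0.46 among H2B genes, 0.51 between H2B and H4 genes and -0.16 between H2A and H4 genes. The coding parts of H4 copies are nearly the same, and whether their probes tell the copies apart was not tested.

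**Figure D4:**
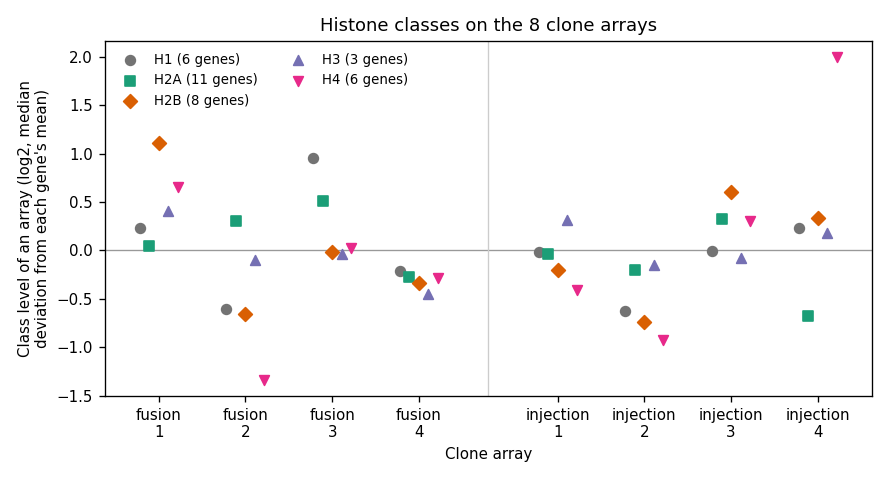
Class level of each of the 8 clones (y axis, log2, median over the genes of a class of each gene's value minus its mean over the 8 clones) for the 4 fusion and 4 injection clones (x axis), with a marker and color for each of the histones H1, H2A, H2B, H3 and H4. The H4 level spans -1.34 to 2.0, with injection clone 4 at the top, and the groups overlap in all 5 classes.

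Single histone genes showed the same spread. *Hist1h1c*, a linker histone, was at 14.20, 10.46, 11.85 and 9.02 in the fusion clones and at 10.53, 9.96, 12.10 and 10.60 in the injection clones. Fusion clone 1 lay over 2 log2 units above the next fusion clone, and without it the difference of 0.59 became -0.35. *Hist1h4i*, an H4 gene, was at 11.27, 8.85, 9.56 and 8.62 in the fusion clones and at 10.42, 8.79, 10.99 and 11.58 in the injection clones, a difference of -0.87. *Hist1h2bc*, an H2B gene, differed by -0.17 and, without fusion clone 4, by 0.06. The highest and lowest differences were *Hist1h1e* at 1.23, a linker histone, and *Hist3h2ba* at -1.03, an H2B gene, both within their spread. The 3 probes of *Hist3h2a*, an H2A gene, gave 0.23, -0.19 and 0.45. Of 10 replication-independent histone genes 8 were higher with a median of 0.18. At an unadjusted p below 0.05, 1 of them (10%) was higher, against 2.68% of all genes. It was *H2afy*, the gene of macroH2A1, higher by 0.44.

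The heat shock proteins were described by class. The 26 genes had a median of 0.01, 13 higher and 13 lower. At an unadjusted p below 0.05, 2 (7.69%) were higher and 1 (3.85%) lower, against 2.68% and 3.52% of all genes. All 3 genes of the Hsp90 class were higher in the fusion clones. *Hsp90b1*, the chaperone of the endoplasmic reticulum also known as GRP94, was at 14.87, 14.93, 14.85 and 14.91 in the fusion clones and at 14.53, 14.61, 14.73 and 14.42 in the injection clones. The fusion clones were within 0.1 of each other and above all injection clones, a difference of 0.32 ± 0.09 (SE) with an adjusted p of 0.675 by limma. *Hsp90aa1*, a cytosolic form, was at 18.63, 18.57, 18.72 and 18.67 in the fusion clones and at 18.37, 18.54, 18.39 and 18.39 in the injection clones, a difference of 0.23 without overlap. *Hsp90ab1*, the other cytosolic form, differed by 0.08, and by -0.04 at its brightest probe.

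Of 7 small heat shock proteins 6 were lower, with a median of -0.10. The median was -0.25 without fusion clone 2, -0.41 without fusion clone 4 and -0.19 without injection clone 2, and 4 of the 7 were lower without fusion clone 3. *Hspb8*, which acts with BAG3 in the removal of misfolded proteins, was at 10.67, 10.92, 10.71 and 9.84 in the fusion clones and at 12.29, 11.48, 12.38 and 11.32 in the injection clones. All injection clones lay above all fusion clones, with a difference of -1.33 ± 0.34 (SE), an unadjusted p of 0.00563 and an adjusted p of 0.581 by limma. *Hspb1*, also known as HSP25, was the exception at 0.55, with values at 9.65, 8.51, 8.15 and 8.44 in the fusion clones and at 8.44, 7.96, 7.69 and 8.48 in the injection clones, where fusion clone 1 was the highest. The 11 genes of the Hsp70 class had a median of 0.04, and -0.14 to 0.03 without 1 array. *Hspa8*, the constitutive form, differed by 0.04 and, without injection clone 1, by -0.03, *Hspa5*, or BiP, by 0.13, and *Hspd1*, the mitochondrial chaperonin, by 0.13. *Hspa1a*, a stress-induced form, ranged from 4.51 to 8.28 in the fusion clones and from 4.0 to 9.23 in the injection clones, with a difference of 0.50 ± 1.44 (SE). The 4 probes of *Hspa4l*, a nucleotide exchange factor of Hsp70, gave -0.18, -0.23, -1.08 and -2.43. The co-chaperones of these proteins had a median of 0.05 over 36 tested genes. At an unadjusted p below 0.05, 1 (2.78%) was higher, *Dnajb4* at 0.66, and 0 lower, against 2.68% and 3.52% of all genes. GAANNTTC, the core of the heat shock element, was in 6 of 22 windows of heat shock genes (27.3%), against 6.7% of all. By class it was in 3 of 7 windows of small heat shock proteins (42.9%) and in 1 of 10 of the Hsp70 class (10%).

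Keratins were mostly dim apart from those of simple epithelia. Of 72 keratin names 53 were tested and 23 were above background on all 8 arrays, and the median difference was -0.02, 20 higher and 32 lower. *Krt8*, a keratin of the trophectoderm, was at 18.19, 18.46, 18.24 and 18.61 in the fusion clones and at 18.33, 18.51, 18.01 and 18.11 in the injection clones, and *Krt18*, its partner in the filament, at 17.84, 18.08, 17.87 and 18.27 in the fusion clones and at 17.83, 18.13, 17.61 and 18 in the injection clones. *Krt8* differed by 0.13 and *Krt18* by 0.12, and fusion clone 4 was the highest array for each. With another background correction *Krt8* gave 0.00. *Krt19*, another simple keratin, was at 10.28, 9.92, 10.62 and 10.27 in the fusion clones and at 12.74, 11.29, 8.91 and 8.79 in the injection clones. The fusion clones were close together and the injection clones spread over almost 4 log2 units, with a difference of -0.16 ± 0.90 (SE) that became 0.61 without injection clone 1 and 0.13 without injection clone 2. *Krt7*, also of simple epithelia, was at 8.91, 10.72, 9.93 and 12.24 in the fusion clones and at 10.27, 9.90, 8.70 and 11.26 in the injection clones, a difference of 0.42 that became -0.18 without fusion clone 4 and -0.03 without injection clone 3. *Krt33a*, a hair keratin, had the highest difference among genes above background in both groups, 0.83, and *Krt14*, a keratin of basal epidermis, the lowest, -1.10, with *Krt33a* at the floor on 4 of the 8 arrays. *Krt9*, a keratin of the palm and sole, had an unadjusted p of 0.0119 but was above background on 1 array of each group. *Krtdap*, a secreted protein of the epidermis with this prefix, differed by -0.33 and by 0.08 or 0.35 without fusion clone 3 or injection clone 1. Genes of the trophectoderm junctions, 8 in number, had a median of 0.01.

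The solute carriers were the largest family and stood near the background. Of 323 names 285 were tested, with a median of 0.01, 143 higher and 140 lower. At an unadjusted p below 0.05, 9 (3.16%) were higher and 7 (2.46%) lower, against 2.68% and 3.52% of all genes. By the substance carried, median differences ran from -0.11 for other carriers to 0.05 for sugar carriers, with 0.02 for amino acid carriers, 0.01 for mitochondrial carriers and -0.06 for ion exchangers and cotransporters. *Slc2a1*, the glucose transporter GLUT1, was at 14.16, 14.50, 13.40 and 14.48 in the fusion clones and at 13.93, 14.09, 14.05 and 13.53 in the injection clones, a difference of 0.24 with fusion clone 3 the lowest. *Slc2a3*, or GLUT3, was at 11.06, 10.63, 10.10 and 12.30 in the fusion clones and at 11.90, 9.96, 10.09 and 10.28 in the injection clones, a difference of 0.46 that lay within the spread of both groups. *Slc7a5*, a carrier of large neutral amino acids, differed by -0.28 and, without fusion clone 4, by 0.11, and *Slc3a2*, its heavy chain, by 0.18. *Slc25a4*, the ADP/ATP carrier ANT1, was at 16.16, 16.30, 16.18 and 16.23 in the fusion clones and at 16.03, 15.98, 15.85 and 16.02 in the injection clones. Its 2 probes gave 0.26 and 0.23, and the groups overlapped on neither. Among genes with at least 2 probes this held for 1 of 210 family genes and 19 of 7013 genes in all. A count of 1 cannot be set apart from that share. Its adjusted p was 0.739.

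The carriers with the largest differences were dim or varied between arrays. *Slc40a1*, the iron exporter ferroportin, had the highest difference of the family at 3.24 ± 1.78 (SE), with values at 16.05, 12.79, 11.66 and 13.91 in the fusion clones and at 7.36, 14.66, 11.44 and 7.98 in the injection clones. Injection clones 1 and 4 were low while injection clone 2 was above 3 of the 4 fusion clones. *Slc35f3*, a carrier of thiamine, had the lowest at -2.99 and was at 4.0, 4.0, 5.40 and 4.0 in the fusion clones and at 8.89, 5.32, 9.12 and 6.02 in the injection clones, above background on 1 fusion clone. The following were chosen after their values were seen, for an unadjusted p below 0.05 without overlap. *Slc6a12*, a carrier of betaine and GABA, was at 8.50, 5.72, 7.19 and 6.83 in the fusion clones and at 9.27, 10.08, 9.61 and 9.14 in the injection clones, a difference of -2.46 with an adjusted p of 0.505. *Slc12a5*, a potassium-chloride cotransporter of neurons, was at 8.31, 7.27, 7.91 and 8.71 in the fusion clones and at 4.35, 6.76, 4.39 and 6.37 in the injection clones, a difference of 2.59. *Slc43a3*, a carrier of purine bases, was at 15.91, 15.94, 15.94 and 16.33 in the fusion clones and at 14.48, 15.75, 14.88 and 14.19 in the injection clones, and *Slc7a8*, a carrier of neutral amino acids, at 11.63, 11.55, 10.67 and 12.34 in the fusion clones and at 10.09, 10.58, 9.68 and 10.61 in the injection clones, differences of 1.21 and 1.31. *Slc22a7* and *Slc22a13*, carriers of organic anions, differed by -1.60 and -1.29. In *Slc43a3* injection clone 2 came within 0.2 of the lowest fusion clone. The 4 probes of *Slc38a2*, an amino acid carrier that responds to starvation, averaged -0.31. Among its probes above background on all 8 arrays the differences lay up to 2.06 log2 units apart.

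**Figure D5:**
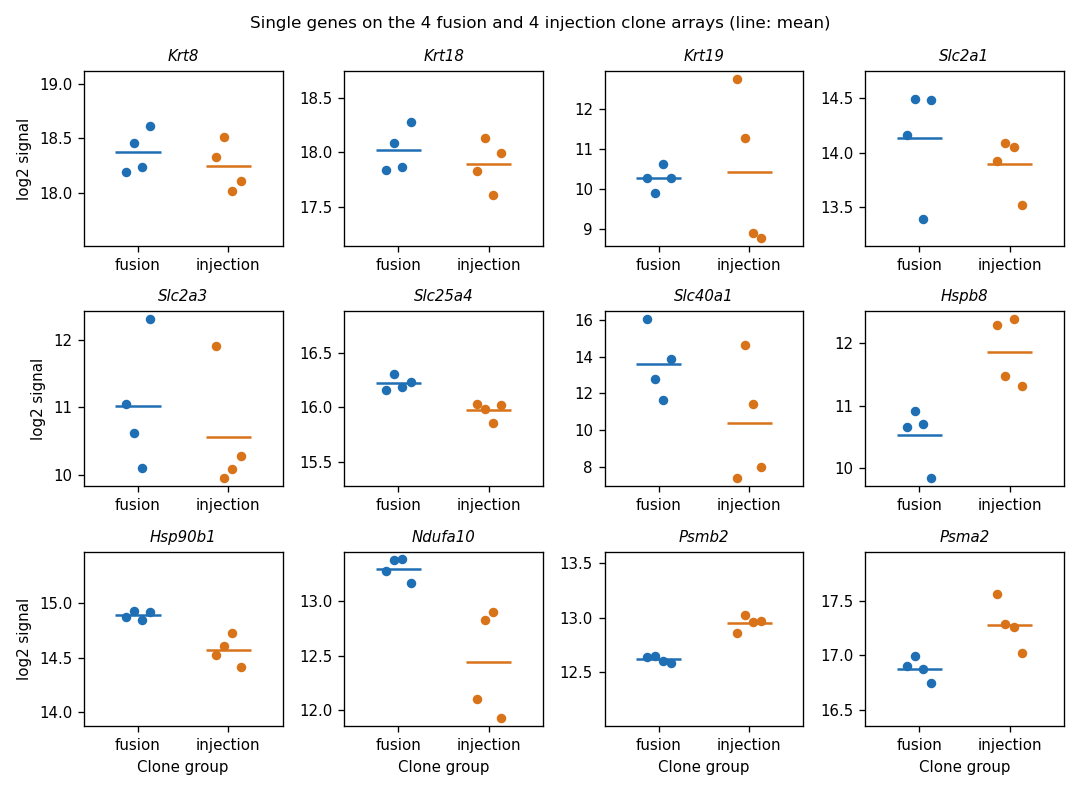
Log2 normalized signal of 12 family genes (one panel each, y axis) in the 4 fusion clones and 4 injection clones (x axis), with a point per array and a horizontal line for the group mean. The groups are apart in *Psmb2*, *Psma2*, *Ndufa10*, *Hspb8*, *Hsp90b1* and *Slc25a4* and overlap in *Krt8*, *Krt18*, *Krt19*, *Slc2a1*, *Slc2a3* and *Slc40a1*.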

How the data were processed

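Each array was scanned and read with Agilent Feature Extraction by the authors, with version 10.5.1 named in the submitters' processing notes. Per the file headers the 8 clone arrays came from 1 scanner and software version, which differ from those of the IVF arrays. The authors deposited for every spot a processed intensity on a linear scale, after background subtraction within the array and without normalization between arrays. The authors also deposited a log2 table of the same arrays, used here only as an alternative.

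The 1639 control spots were left out and spots marked as outliers (101 to 304 per clone array) were set to missing. No spot of the clone arrays was saturated. Intensities were quantile-normalized over the 14 arrays, put on the log2 scale with a floor of 16, and averaged per probe. Quantile normalization gives every array the same overall distribution, so a shift common to most genes cannot be seen, and signals near the floor understate differences. Probes marked well above background on 1 or more of the 8 clone arrays were used (32303 of 41174 probes), and probes of 1 gene name were averaged, which gave 22094 genes. Gene names come from the array's design, carried in the IVF files and joined by probe name, and 591 of 592 family names matched a RefSeq table of GRCm38.p6.

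Groups and replicate numbers were taken from the sample titles. Fusion and injection clones were compared with limma 3.58.1 (lmFit, then eBayes) under R 4.3.3, two-sided, with Benjamini-Hochberg adjustment over all genes, and the number of arrays limits the precision. The test was tried on simulated data, where most genes changed 2-fold did not pass after adjustment. A fold against a group without any array above background is not a strict bound, since the mean of the other group can include arrays at the floor. There the dim value on an array was the larger of the measured one and the smallest signal that passed the mark for well above background. Promoter windows of 250 bases were read from a RefSeq table and searched for fixed letters on both strands.

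The members, the gene lists and the naming rule were chosen with earlier results of these data known. Named genes are 28 of textbook role (27 tested), the highest and lowest difference in each family among genes above background in each group, genes whose groups overlap on no probe, and the gene of each family whose well measured probes differ most. All other named genes are to be read as chosen after their values were seen. This holds also where it is not said beside them, as for *Hsp90b1*, *Hsp90aa1*, *Rps19bp1*, *Krt9*, *Ube2l3*, *Atp5s*, *H2afy* and *Dnajb4*. Lists of related complexes and of cell type markers are given in full as counts. Alternatives changed the normalization, background correction, floor, filter, choice of probe, fit and arrays. Python 3.11.15 with pandas 2.3.3 and matplotlib 3.10.9 did the rest. No column was left without a sample (0 columns).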

Additional observations from a re-analysis of the deposited data

Results flagged for a closer look

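In 9 of 124 groups of 4 arrays tested, 1 array lay so far from the other 3 that its gap to the nearest of them, as a share of the whole range of the group, passed Dixon's limit. Chance flags about 1 group in 20, or 6.2 of 124. The heat shock family level of fusion clone 4 was -0.12, below the other 3 fusion clones. *Slc2a3* was at 11.90 in injection clone 1, above the other injection clones. *Psmd4* was at 9.62 in fusion clone 4, above the other fusion clones and against the direction of the proteasome family. *Rps6* was at 10.93 in fusion clone 3 and *Cox4nb* at 8.39 in fusion clone 1, each above the rest of its group. *Ndufb8* was at 9.97 in injection clone 2, below the other 3 injection clones. *Hist3h2a* was at 11.55 in fusion clone 1, and without this array its difference changed sign to -0.27. *Krt33a*, at 4.53 in injection clone 3, and *Slc35f3*, at 5.40 in fusion clone 3, had their other 3 arrays at the floor.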

How the results depend on the processing

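Limits lie in the 4 arrays per group, in the slide that each group had to itself, and in dim probes near the floor. The count of genes at an adjusted p below 0.05 was 4 with the deposited log2 table, 10 with a floor of 1, 1 with all 4 groups in one fit and 0 to 2 without 1 array. With a floor of 1 the lowest adjusted p of the *Slc* family was 0.0238 by limma, so a family gene passed there. Genes at an unadjusted p below 0.05 with at least a 2-fold difference numbered 248 with normexp background, 861 with the deposited table, 937 with a floor of 1, 280 with a floor of 32 and 769 when probes were counted in place of genes. Proteasome genes lower at an unadjusted p below 0.05, an alternative set added after seeing the data, numbered 1 with the deposited table, 0 with a floor of 1, 4 with the filter at 4 arrays, 1 with all 4 groups in one fit and 5 to 16 without 1 array. Genes without overlap numbered 1115 to 1456 without 1 array, when 3 arrays stand against 4. The keratin median was -0.11 with a floor of 1, -0.10 with the filter at 4 arrays and -0.076 to 0.0 without 1 array, the *Cox* median ran from -0.0061 to 0.10 and the *Hsp* median from -0.063 to 0.0525. The share of genes with all probes on 1 side was, over all genes, 55.6% with a floor of 1, 48.2% with a floor of 32, 58.1% with the filter at 4 arrays, 39.7% with no filter and 53.6% to 56.1% without 1 array. For *Slc* it was 46.6% with a floor of 32, 41.6% with no filter and 47.6% to 63.1% without 1 array, and for *Hist* 57.1% to 85.7%. *Krt8* gave -0.0038 and *Cox4i1* -0.026 with normexp background, and *Hsp90ab1* -0.035 at its brightest probe. Without 1 array 13 named genes changed sign, with ranges of -0.032 to 0.12 for *Rps3*, -0.081 to 0.077 for *Rpl27a*, -0.031 to 0.10 for *Hspa8*, -0.039 to 0.45 for *Ndufs1*, -0.24 to 0.032 for *Ndufa4*, -0.26 to 0.013 for *Psmd7*, -0.35 to 1.37 for *Hist1h1c*, -0.27 to 0.43 for *Hist3h2a*, -0.44 to 0.057 for *Hist1h2bc*, -0.71 to 0.61 for *Krt19*, -0.18 to 0.93 for *Krt7*, -0.78 to 0.35 for *Krtdap* and -0.54 to 0.11 for *Slc7a5*. The causes were not tested. Deviations of samples of the same number had correlations of 0.006, -0.062, 0.12 and -0.016, against -0.091 to 0.092 between samples of different number. These values do not show that the numbers pair the samples, and they cannot exclude it. With the replicate number as a block there were 0 genes at an adjusted p below 0.05, 450 with at least a 2-fold difference and 1384 at an unadjusted p below 0.05, with 8 proteasome genes among those lower.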

Other observations

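Primitive endoderm markers, which belong to none of the 9 families, had 6 of 8 higher in the fusion clones and a median difference of 0.50. Of them 0 had an unadjusted p below 0.05 and the summed signals of the 2 groups overlapped. Trophectoderm markers had 6 of 7 higher, with a median of 0.16. The primitive endoderm level was -0.25, 1.32, 0.90 and -1.21 in the fusion clones and -0.83, -0.37, 0.54 and -0.12 in the injection clones. Fusion clone 4 was thus the lowest of the 8 arrays. Only 4 of the 8 primitive endoderm markers were above background on all 8 arrays. *Gata6*, a factor that sets this lineage apart from the epiblast, was at 13.18, 13.73, 13.82 and 13.44 in the fusion clones and at 12.70, 13.27, 13.61 and 12.68 in the injection clones. *Sox17*, which marks later primitive endoderm, ranged from 4.18 to 12.57 in the fusion clones and from 4.26 to 12.38 in the injection clones, so that arrays of 1 group differed by about 8 log2 units. *Foxa2* was at the floor on all 8 clone arrays and between 9.93 and 11.40 on the 6 arrays of IVF-derived embryos, which were read with another scanner and software version, and this contrast was not tested here.

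Of 5 oocyte markers 4 were lower in the fusion clones, with a median difference of -0.59 and none at an unadjusted p below 0.05. *Gdf9*, a growth factor of the oocyte, ranged from 7.98 to 10.17 in the fusion clones and from 9.90 to 10.54 in the injection clones. The groups overlapped, and fusion clone 3 was the lowest.

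On the 6 IVF arrays the proteasome level, relative to the mean of the clones, was -0.08, -0.09 and -0.33 in male embryos and -0.08, -0.15 and -0.36 in female embryos. The histone level was 0.12, -0.32 and -0.98 in male and 0.05, -1.04 and -0.89 in female embryos, a spread within each sex about as wide as that among the clones. Scanner and software differ between IVF and clone arrays, so these levels were not compared with the clones.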
